A study of Mus musculus with 6 samples.

Results

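RM1536, a labelled line pooled from clones, was compared with RM1, the mouse prostate cancer line from which it was made. The comparison takes replicates a and b of each line, 4 of the 6 libraries of the series, and all 13832 genes that passed the low-count filter, of 23791 named entries. RM1 is an established line of C57BL/6 origin and was unlabelled. RM1536 expresses eCFP, a fluorescent protein, and luc2, a luciferase, and was made by pooling clones 5, 3 and 6. Per the labels, cells of both lines were sorted by FACS and expanded to 85% cover of a T75 flask in DMEM (5% FBS). The other 2 libraries, called bone and lung below, are 1 culture each of RM1536 cells recovered from the femur and the lung of 1 mouse 16 days after injection into the heart, and they are quoted only to show whether a difference was still present in descendants of RM1536. RM1536 is therefore a mixture founded by 3 clones, and labelling, cloning and time in culture all separate it from RM1, so that they cannot be told apart. In RNA from a whole culture, fewer cells that express a gene and less RNA per cell cannot be told apart either. The table has no row for eCFP or luc2, so the label itself was not checked.

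A tumour cell line is a mixed population in which cells differ in karyotype and in which genes they keep silent, and a line founded from a few cells carries the states of its founders. Some of these states are passed on through cell division, such as the silencing of 1 parental copy at imprinted genes, the silence of germline genes in somatic cells, and changes in the number of copies of a chromosome. Others are set by signalling between cells: epidermal growth factor (EGF) family ligands act through receptor tyrosine kinases and MAP kinases, activins and bone morphogenetic proteins (BMPs) through SMAD proteins, Wnt proteins through Frizzled and ROR receptors, and semaphorins, slits and ephrins guide migrating cells and axons.

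Library totals ran from 24291590 to 30303566 counts in the 4 cultures. Levels are given as counts per 1000000 counts of a library (CPM), and 3 counts, the limit that 0 counts allow, correspond to 0.0971 to 0.121 CPM in RM1536 and to 0.10 and 0.11 in RM1. The duplicates were not alike: 5.35% of the genes with a CPM of 5 or more in either library differed at least 2-fold within the RM1 pair, and 5.90% within the RM1536 pair. Nothing in the labels ties a and b to separate cultures, so p-values measure only the spread between these libraries, which may be technical. Of the prostate epithelial markers checked, Krt8 and Krt18, which code for keratins of luminal epithelium, had between 8492 and 52781 reads in each culture. The prostate lineage gene Hoxb13 and the basal keratin gene Krt5 had 0 reads in all 6 libraries. The general epithelial markers Cdh1 and Epcam were low: Cdh1 had 5 and 8 reads in RM1 and 7 and 2 in RM1536. Epcam had 37 and 20 in RM1 and 33 and 18 in RM1536. The leukocyte markers Itgam, Adgre1 and Lyz2 had 0 reads in the 4 cultures and Ptprc had 0 to 2, whereas Cd68, a lysosomal protein gene of the same list, had 287 and 1230 reads in RM1 and 279 and 111 in RM1536. The leukocyte list summed to 9.69 and 43.6 CPM in RM1 and to 11.5 and 3.85 in RM1536. The fibroblast list summed to 1405 and 627 CPM in RM1 and to 848 and 1087 in RM1536. Most of this was Col3a1 (1377 and 593 CPM in RM1, 762 and 972 in RM1536), whereas Thy1 had 0 or 1 read in each culture. Dcn stood at 2.04 and 6.34 CPM in RM1 versus 57.9 and 21.1 in RM1536. For Pdgfrb the values were 3.54 and 1.24 CPM in RM1 versus 4.99 and 59.5 in RM1536. Of the 7 fibroblast genes tested, 5 had a log2 fold change of RM1536 against RM1 above 0 (median 0.87). None of the 7 passed the threshold given below.

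RM1536 and RM1 differed in 780 genes, 5.64% of those tested, at an adjusted p below 0.05 in edgeR's quasi-likelihood test with Benjamini-Hochberg adjustment over all 13832 genes. Of these, 291 (2.10%) were higher in RM1536 and 489 (3.54%) were lower. A gene is said below to have risen or fallen, or is called, only if it passed this threshold, and each log2 fold change is RM1536 against RM1 with its standard error (SE, n = 2 and 2). Over all genes tested the median log2 fold change was 0.02. The values of the lines did not overlap, in either direction, in 54.2% of the genes tested, so a lack of overlap among genes named for being called is given below only as a description. The number of calls depended on the libraries: it was 427 without RM1536 a and 196 without RM1536 b, 486 without RM1 a and 513 without RM1 b. When 1 library is left out, the line it belonged to has 1 library left, which is assumed to vary like the other line.

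Among the most abundant genes that rose were Ank, which codes for a membrane protein that carries pyrophosphate and ATP out of cells, the matricellular protein gene Thbs2, the chromatin protein gene Hmga2 and Galnt1, an enzyme that starts O-linked glycans. Ank stood at 530.1 and 410.0 CPM in RM1 versus 1465 and 1737 in RM1536 (log2 fold change 1.77 ± 0.24, adjusted p = 0.0185). Thbs2 went from 385 and 398 to 1259 and 1214 CPM, Galnt1 from 261 and 175 to 916 and 689.5 CPM and Hmga2 from 292 and 239.8 to 742 and 565 CPM. In each of these 4 genes both RM1536 libraries lay above both RM1 libraries. Gsn, which codes for the actin-severing protein gelsolin, rose by 0.97 ± 0.19 (adjusted p = 0.0473), and the mitochondrial ribosomal RNA gene mt-Rnr2 by 1.31 ± 0.27 (0.049). Of the 12 mitochondrial genes at a mean of 5 CPM or more, 10 lay above 0 with a median of 0.90, but the medians of RM1 a and b lay 0.71 apart and those of RM1536 a and b 0.38 apart, and the part of RNA quality in these values was not tested.

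The abundant genes that fell included several secreted and surface proteins. Tinagl1, which codes for a matrix protein of basement membranes, stood at 636 and 456 CPM in RM1 versus 60.6 and 77.2 in RM1536 (log2 fold change -2.99 ± 0.27, adjusted p = 0.00934). Clu, the gene for the extracellular chaperone clusterin, was chosen after its values were seen: it stood at 572 and 498 CPM in RM1 versus 63 and 54.1 in RM1536, and at 345 for bone and 136 for lung (log2 fold change -3.19 ± 0.23, adjusted p = 0.00614). Both RM1536 libraries lay below both RM1 libraries in each gene. In the 1 bone library the Clu level lay between those of RM1536 and RM1, and the reason was not tested. Ptprn, a receptor-type phosphatase of secretory granules, went from 688 and 916 to 208 and 168 CPM. Smaller decreases were found for Mfge8 (-1.05 ± 0.21), a secreted bridge to dying cells, Hk1 (-1.03 ± 0.20), a hexokinase that starts glycolysis, and Aplp2 (-1.09 ± 0.19), a relative of the amyloid precursor protein. Of the 12 called genes of these abundant sets, 2 (Tinagl1 and Clu) were called under each of 9 other settings, which changed the scaling, the tool, the filter or the libraries. Without RM1536 b 9 of them missed the threshold, without RM1536 a 7, without RM1 a 7 and without RM1 b 9.

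A set of 64 genes was on in RM1 and off in RM1536, here meaning at least 1 CPM in both RM1 libraries and at most 3 reads in each RM1536 library. The reverse, at most 3 reads in each RM1 library and at least 1 CPM in both RM1536 libraries, held for 15 genes. Of the 64 genes, 28 had no read in either RM1536 library, and 62 are protein-coding. The loss was largely kept in the descendants of RM1536: 52 of the 64 had at most 3 reads in bone, 55 in lung and 48 in both. Of the 15 genes gained, 10 were at 1 CPM or more in bone, 13 in lung and 9 in both. The rule selected these genes by their difference, so the counts describe them and are no test.

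Promoter sequences of 6 of these genes are shown for their CG dinucleotides, the sites at which mammalian DNA is methylated. The 2 shown from the genes on in RM1536 hold 33 and 22 CG. CG-poor promoters of that group, such as those of Spint4 (4 CG) and Cdh10 (2 CG), are not shown. Each is the stretch from 250 bases before to 50 bases after a RefSeq start site (GRCm38.p6), 5′ to 3′, with every CG in capitals. Off in RM1536 were the paternally expressed genes Peg3 (chr7:6730370-6730669, minus strand, 13 CG) and Peg12 (chr7:62464461-62464760, minus strand, 12 CG), the homeobox gene Msx1 (chr5:37824536-37824835, minus strand, 29 CG) and the lymphoid nuclear protein gene Xlr (chrX:53797657-53797956, minus strand, 7 CG). On in RM1536 were Cemip (chr7:84086456-84086755, minus strand, 33 CG), which is needed for breakdown of hyaluronan, and Rnf152 (chr1:105356661-105356960, minus strand, 22 CG), which codes for a lysosomal ubiquitin ligase.
Peg3: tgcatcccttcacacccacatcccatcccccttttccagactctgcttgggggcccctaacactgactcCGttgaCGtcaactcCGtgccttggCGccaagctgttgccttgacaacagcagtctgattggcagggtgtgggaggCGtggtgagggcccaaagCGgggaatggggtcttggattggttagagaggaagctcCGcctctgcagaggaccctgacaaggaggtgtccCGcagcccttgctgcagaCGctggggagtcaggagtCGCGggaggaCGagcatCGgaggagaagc
Peg12: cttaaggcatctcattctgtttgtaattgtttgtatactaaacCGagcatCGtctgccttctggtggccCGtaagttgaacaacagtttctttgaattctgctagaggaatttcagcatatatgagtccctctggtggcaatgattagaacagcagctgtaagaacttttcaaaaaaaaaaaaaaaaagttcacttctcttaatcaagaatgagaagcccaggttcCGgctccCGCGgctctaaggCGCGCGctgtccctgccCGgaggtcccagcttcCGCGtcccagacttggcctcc
Msx1: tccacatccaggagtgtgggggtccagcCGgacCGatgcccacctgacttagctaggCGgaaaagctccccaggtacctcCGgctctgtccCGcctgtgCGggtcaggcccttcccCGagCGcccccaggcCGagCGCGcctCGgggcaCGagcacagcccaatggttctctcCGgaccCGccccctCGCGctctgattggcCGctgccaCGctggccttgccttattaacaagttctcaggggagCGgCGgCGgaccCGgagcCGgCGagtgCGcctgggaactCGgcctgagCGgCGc
Xlr: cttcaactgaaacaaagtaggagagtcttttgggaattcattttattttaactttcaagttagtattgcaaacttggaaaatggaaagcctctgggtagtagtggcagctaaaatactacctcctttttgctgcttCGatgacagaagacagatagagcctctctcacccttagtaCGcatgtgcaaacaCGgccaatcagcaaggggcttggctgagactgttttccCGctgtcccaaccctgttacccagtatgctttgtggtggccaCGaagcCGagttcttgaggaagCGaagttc
Cemip: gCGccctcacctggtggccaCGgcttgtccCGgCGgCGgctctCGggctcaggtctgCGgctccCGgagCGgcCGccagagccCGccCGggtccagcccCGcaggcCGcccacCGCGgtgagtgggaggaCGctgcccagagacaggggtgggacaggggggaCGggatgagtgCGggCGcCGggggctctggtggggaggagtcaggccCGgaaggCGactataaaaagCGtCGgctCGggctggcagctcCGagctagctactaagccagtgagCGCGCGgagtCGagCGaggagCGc
Rnf152: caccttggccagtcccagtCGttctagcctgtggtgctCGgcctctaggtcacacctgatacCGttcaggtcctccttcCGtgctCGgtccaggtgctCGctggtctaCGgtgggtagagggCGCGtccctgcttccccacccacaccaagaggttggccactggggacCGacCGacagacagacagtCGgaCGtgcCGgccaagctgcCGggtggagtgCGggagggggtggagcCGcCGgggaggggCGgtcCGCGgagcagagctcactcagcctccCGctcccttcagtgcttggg

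A promoter entry on the strand and chromosome of the gene was found for 49 of the 64 genes that were off in RM1536, for 12 of the 15 that were on, and for 10002 of the 13832 genes tested. The median number of CG on 1 strand of the 300-base window was 13 in the genes that were off, 21 in those that were on and 21 in all tested genes. Among the 6786 tested genes whose RM1 level lay in the same range as the 64 (1.05 to 101 CPM) it was also 21. The median RM1 level of the 64 was 3.24 CPM, near the low end of that range. This set was therefore not matched to the 64 in level, and whether CG number goes with level was not tested. Peg3 and Peg12, with 13 and 12 CG, lay near the median of the genes that were off, Xlr with 7 below it, and Msx1 with 29 and Cemip with 33 well above. CG content is a property of the sequence, and methylation was not measured.

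The genes that were off in RM1536 covered transcription factors, imprinted genes, surface proteins and enzymes. Msx1, a homeobox repressor of differentiation in limb and face, had 490 and 313 reads in RM1, 0 and 0 in RM1536, 0 for bone and 1 for lung, so that it was at least 256-fold lower in RM1536 against a limit of 3 reads over both libraries. Xlr had 456 and 396 reads in RM1 and none in the other 4 libraries (at least 272-fold lower). Enox2, an X-linked surface oxidase gene, had 385 and 368 reads in RM1 and likewise none elsewhere (at least 241-fold lower). In these 3 genes every RM1 library had over 300 reads and neither RM1536 culture had any.

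Further on the list, Lrig3, which codes for a membrane protein with leucine-rich repeats, had 220 and 320 reads in RM1 and none in the 4 libraries of RM1536 cells (at least 172-fold lower). Tmem171, a gene for a membrane protein, showed the same pattern, with 275 and 217 reads (at least 157-fold lower). Cyp2j6, a cytochrome P450 that oxidises fatty acids, had 257 and 332 reads in RM1 and 0 and 1 in RM1536, an RM1 to RM1536 ratio of 564 (95% counting interval 101 to 22329). Its interval is wide because it rests on 1 read. Col5a2, a fibrillar collagen chain, had 366 and 209 reads against 2 and 0. H2-Q7, an MHC class I gene with near-identical neighbours between which reads can be split, had 231 and 252 against 1 and 2.

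Cd24a, which codes for a small surface glycoprotein, was the exception in the bone library. It had 417 and 186 reads in RM1, 0 and 1 in RM1536, 1 in lung but 159 in bone. The macrophage lysozyme gene Lyz2 had 0 reads in the 4 cultures, 61 for bone and 73 for lung, and its part in the Cd24a value was not tested. Of the 9 called genes named among those off, 9 (Msx1, Xlr, Enox2, Lrig3, Tmem171, Cyp2j6, Col5a2, H2-Q7 and Cd24a) were called under each of the 9 other settings.

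**Figure D1:**
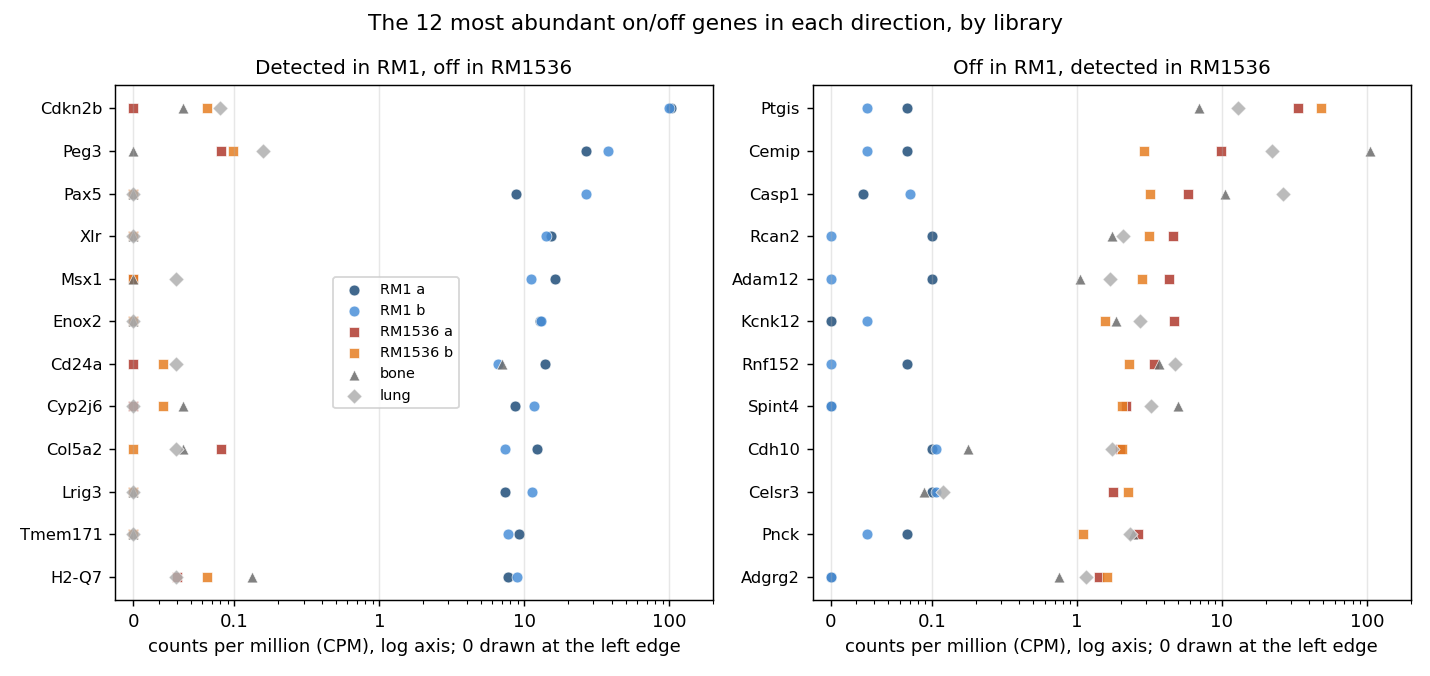
CPM of the 12 genes with the highest level that were off in RM1536 (left) and of the 12 that were off in RM1 (right), on a log axis, with 1 point per library and 0 drawn at the left edge. Circles are RM1, squares RM1536, and the triangle and diamond are the bone and lung libraries, which lie with RM1536 for most genes but not for Cd24a in bone (6.98 CPM), Cdh10 in bone (0.176) or Celsr3 (0.0878 in bone and 0.118 in lung).

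The genes that were on only in RM1536, by the same rule, included surface proteins, channels and regulators. Spint4, which codes for a protease inhibitor of the male reproductive tract, had 0 and 0 reads in RM1, 54 and 63 in RM1536, 113 for bone and 82 for lung (at least 40.7-fold higher). Adgrg2, an adhesion G protein-coupled receptor of the epididymis, had 0 and 0 in RM1 and 35 and 50 in RM1536 (at least 29.6-fold higher). For both genes, the RM1 libraries held no read of 30199663 and 27562047 counts.

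Rcan2, an inhibitor of the phosphatase calcineurin, had 3 and 0 reads in RM1 and 114 and 97 in RM1536, an RM1536 to RM1 ratio of 73.4 (95% counting interval 24.8 to 359). For Adam12, a metalloprotease gene, the ratio was 67.8 (95% counting interval 22.9 to 332), and for Rnf152 it was 80.9 (95% counting interval 22 to 674). The intervals cover counting error only. The potassium channel gene Kcnk12 had 0 and 1 reads against 116 and 48, and the calmodulin-dependent kinase gene Pnck 2 and 1 against 65 and 34. Cdh10, a neural cadherin, and Celsr3, a cadherin of planar polarity, had 3 reads in each RM1 library. In RM1536, Cdh10 had 49 and 63 reads and Celsr3 44 and 69. Celsr3 had only 2 reads for bone and 3 for lung, so its gain was not seen in the recovered cells, and Cdh10 had 4 for bone and 44 for lung, so its gain was seen in lung only. Of the 9 called genes named here, 1 (Rnf152) held under all 9 settings, 5 missed the threshold without RM1536 a and 6 without RM1536 b.

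The limit of 3 reads cut through a continuous range. Just inside it, with 3 reads in the higher RM1536 library, were 9 genes, among them Egfr, Dsp and Piwil4, and just outside, with 4, were 7, among them Krt15, Crhbp and Grip1. For the genes gained in RM1536, 6 had 3 reads in the higher RM1 library and 6 had 4. When at least 5 CPM was required in place of 1, 13 genes were off and 1 (Ptgis, the prostacyclin synthase gene) was on in RM1536. When off meant 0 reads, 28 genes were off and 2 were on. Not every gene off in RM1536 was called by every tool: Pax5, Peg12, Cdkn2a and Dsp were not called by DESeq2.

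The difference between the lines was also spread unevenly over chromosomes. Over the 9570 tested genes at a mean level of 5 CPM or more and with a known position, the median log2 fold change of a chromosome ran from -0.38 (chromosome 13) to 0.44 (chromosome 18) among the 19 autosomes. On chromosome 18, 217 of 257 genes lay above 0 and 40 below. On chromosome 13, 77 of 349 lay above 0 and 272 below. Chromosome 7 (median -0.28, 492 of 648 genes below 0) and chromosome 16 (-0.23, 223 of 296 below 0) were shifted down as a whole, and chromosome 15 up (0.23, 277 of 395 above 0).

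Both RM1536 libraries showed these shifts alike. Relative to the mean of the RM1 libraries on the log2(CPM + 0.5) scale, the chromosome 18 median was 0.44 in RM1536 a and 0.50 in RM1536 b, and the chromosome 13 median was -0.35 and -0.33. Between duplicates, by contrast, no autosome or X median differed by more than 0.09 in RM1 or 0.10 in RM1536. The shifts on chromosomes 7, 13 and 16 were also present in bone (-0.25, -0.56 and -0.24) and lung (-0.24, -0.60 and -0.23). On chromosome 18 lung kept the higher level (0.39) and bone did not (0.10). With 2 libraries against 2, an exact permutation test cannot give a p below 0.333, so these medians are given as a description. DNA was not measured, and the number of copies of any chromosome is not known from these data.

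**Figure D2:**
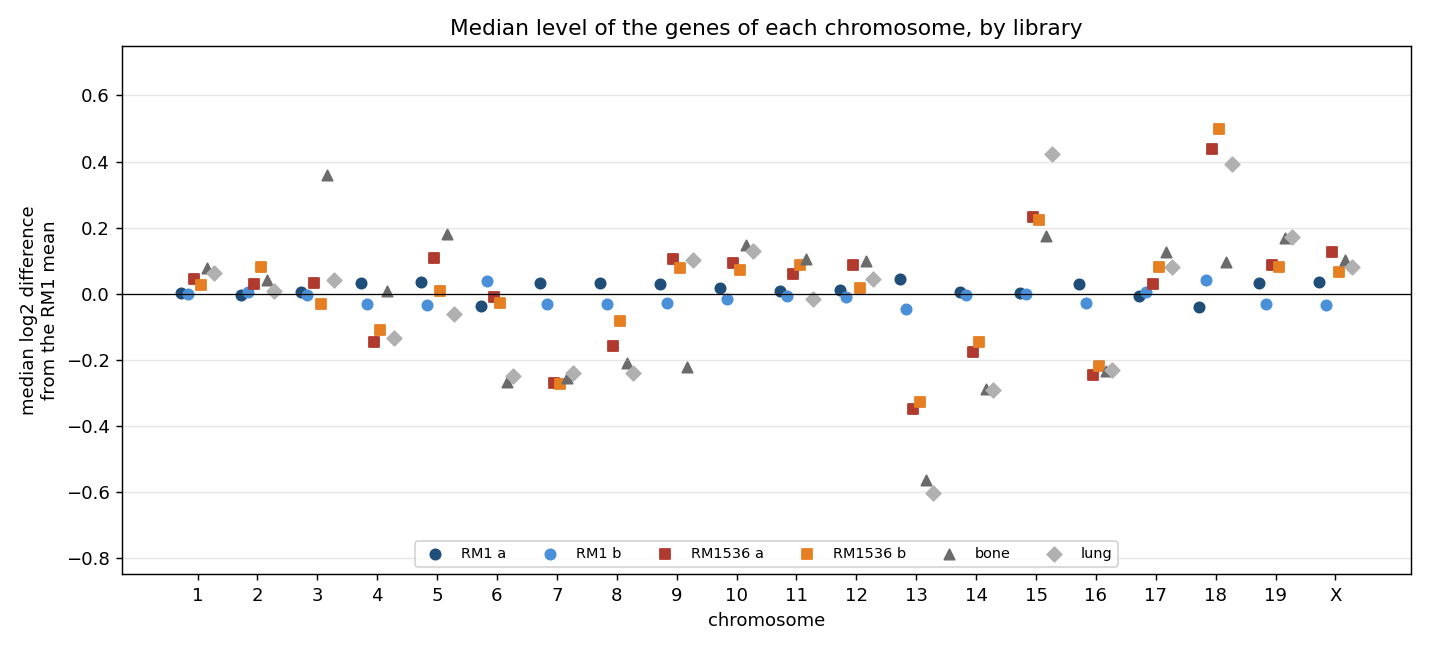
Median log2 difference of each chromosome's genes (mean CPM of at least 5) from the mean of the RM1 libraries, by library, for the autosomes and X. Circles (RM1) lie within 0.05 of 0, while both squares (RM1536) lie below -0.3 on chromosome 13 and above 0.4 on chromosome 18. The circles of a chromosome mirror each other around 0 by construction, so they show only the gap between the RM1 duplicates.

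Within chromosomes 4 and 13 the shift had an edge. On chromosome 4, the 60 genes from the start to 40 Mb had a median log2 fold change of -1.20 (quartiles -1.43 and -0.82), and 57 of them lay below 0. The next 123 genes, from 40 to 80 Mb, had a median of -0.48, with 101 below 0, and the 423 genes from 80 Mb to the end had 0.04, with 201 below 0. In the first stretch RM1536 a and b had medians of -1.10 and -1.14, bone of -1.58 and lung of -1.61, while RM1 a and b differed by 0.15. The stretch was thus lower in both libraries by more than 7 times the gap between the RM1 duplicates, and lower still in the recovered cells. These stretches were not uniform. The 14 genes from 0 to 10 Mb had medians of -0.82 and -0.85 in RM1536 a and b, -0.88 in bone and -1.05 in lung. The 23 genes from 50 to 60 Mb had a median log2 fold change of only -0.18.

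On chromosome 13, the 58 genes before 30 Mb had a median log2 fold change of 0.00 and the 291 genes beyond it -0.43, with 244 below 0. RM1536 a and b stood at -0.41 and -0.42 in the later stretch, bone at -0.60 and lung at -0.68. The limits of 30, 40 and 80 Mb were chosen after the values were seen, from medians of 10 Mb bins. Of 245 bins with at least 10 genes, 8 had a median below -0.5, of which 6 lay on chromosome 4 and 2 on chromosome 13, and 3 had a median above 0.5, all on chromosome 18. In the same bins the duplicates differed by up to 0.35 in RM1 and 0.39 in RM1536, with a median of 0.06 and 0.08.

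**Figure D3:**
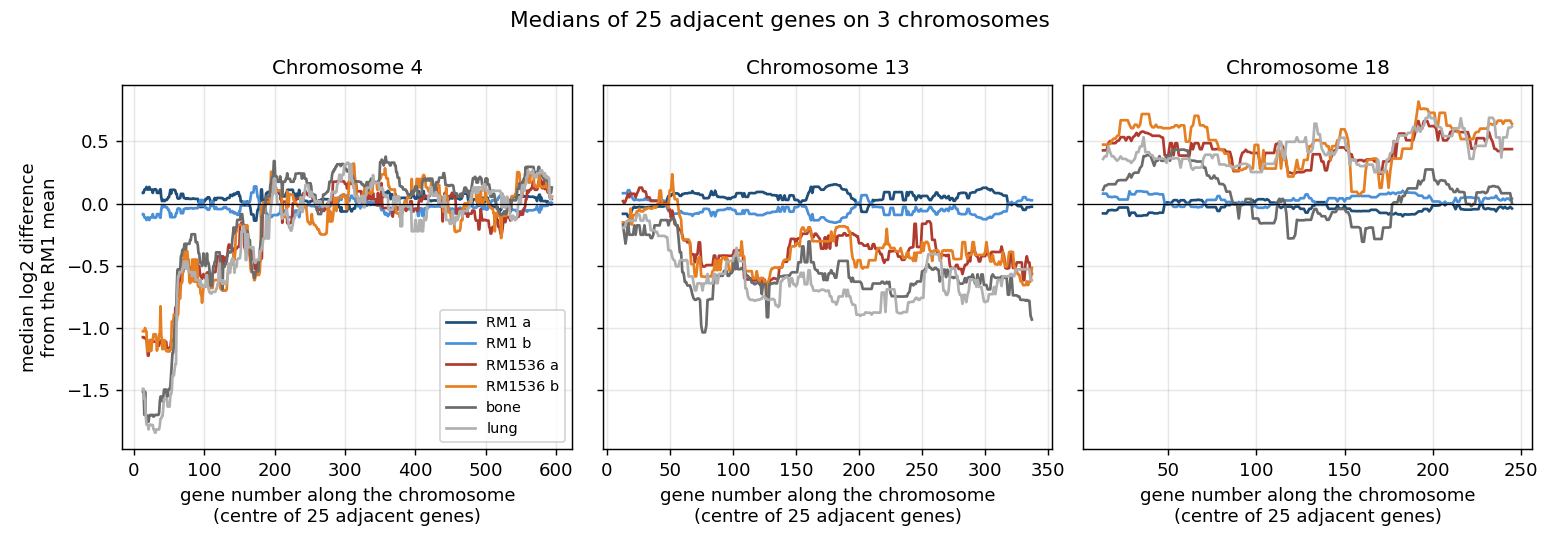
Median log2 difference from the RM1 mean over 25 adjacent genes along chromosomes 4, 13 and 18, in gene order, by library. On chromosome 4 the first 60 genes have medians of -1.10 and -1.14 in RM1536 a and b, -1.58 in bone and -1.61 in lung. Chromosome 18 is raised along its length in RM1536 and lung.

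Many genes of the first stretch of chromosome 4 passed the test 1 by 1. Of its 84 tested genes, 24 (28.6%) fell and 1 rose, against 3.54% and 2.10% over all genes. The longest run of adjacent called genes in the genome lay there, between 34550937 and 34687438: Akirin2, a nuclear factor that binds the proteasome and chromatin regulators, Orc3, a subunit of the origin recognition complex, Rars2, the mitochondrial arginyl-tRNA synthetase, and Slc35a1, the carrier of CMP-sialic acid into the Golgi. Akirin2 stood at 91.1 and 124 CPM in RM1 versus 26.1 and 27.4 in RM1536 (-2.01 ± 0.24, adjusted p = 0.0142). The other 3 fell by 1.26 to 1.38 on the log2 scale, Orc3 from 35.6 and 29.3 to 14.2 and 12.9 CPM, Rars2 from 26.7 and 23.9 to 11.5 and 9.26 CPM and Slc35a1 from 27.5 and 22.4 to 8.61 and 10.6 CPM. Bone and lung lay below both RM1536 libraries for these 3 genes, and Akirin2 stood at 20.6 CPM for bone and 36.2 for lung. Zfp292, a zinc finger gene further along (34803113 to 34882960) chosen after its values were seen, fell as well (-1.52 ± 0.28, adjusted p = 0.0371). All 5 genes missed the threshold without RM1536 a and without RM1536 b. Orc3, Rars2 and Slc35a1 missed it without RM1 a and without RM1 b as well, and Zfp292 without RM1 a.

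Chromosome 4 also held 11 of the 64 genes that were off in RM1536 (17.2%), whereas it holds 5.94% of the genes tested. Of these, 5 (Mmp16, Pax5, Anks6, Galnt12 and Gm11216) lay before 80 Mb, and 6, including Cdkn2a and Cdkn2b, lay in the stretch with a median near 0. Pax5 and Cdkn2a were not called by DESeq2. On chromosome 18, 24 of 362 tested genes rose (6.63%) and 11 fell (3.04%).

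In all, 10 runs of at least 3 adjacent tested genes were called in the same direction, 9 lower and 1 higher. The run that rose, on chromosome 11 from 70212752 to 70229798, holds Slc16a11 and Slc16a13, monocarboxylate carriers, and Bcl6b, a transcriptional repressor. Slc16a11 went from 0.869 and 2.27 to 17.4 and 9.22 CPM, and stood at 86 for bone and 41.9 for lung. Slc16a13 went from 12.3 and 15 to 31.7 and 29.9 CPM and Bcl6b from 0.234 and 0.885 to 6.32 and 4.98 CPM. The genes on either side were not called: Dlg4 (-0.83 ± 0.22, adjusted p = 0.0919) and Pelp1 (0.25 ± 0.25, 0.606), both chosen after their values were seen. All 3 genes of the run missed the threshold without RM1536 a and without RM1536 b, Bcl6b also without RM1 a, and Slc16a13 also without either RM1 library.

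Of the runs that fell, 5 hold interferon-inducible families: Sp110, Sp140 and Sp100 on chromosome 1, Gm11425, Slfn10-ps and Slfn2 on 11, Tap1, Psmb8 and Tap2 on 17, Gm4951, Gm4841 and F830016B08Rik on 18, and Trim5, Trim12a and Trim12c on 7. In this set Sp110 had 0.869 and 2.34 CPM in RM1 and 0 in both RM1536 libraries, and Sp140 0.869 and 2.62 against 0 and 0.0324. Slfn2, a regulator of immune cell growth, went from 12.8 and 20.7 to 0.724 and 0.0324 CPM, and Trim12c from 40.5 and 64.1 to 7.56 and 1.72 CPM. In Slfn2 and Trim12c, RM1536 a lay between RM1536 b and RM1. Of these 15 genes, 14 missed the threshold without RM1536 b (the exception was Slfn2), and Gm4841 was not called by DESeq2 either. Over the genome, there were 10 runs without RM1536 a, 1 without RM1536 b, 5 without RM1 a and 5 without RM1 b. Several of these genes are members of families of close copies, and reads could be split between them. The runs on chromosome 18 and 7 lie beyond the 6 runs that the rule names and were added after their values were seen.

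Keratin genes made up another run, on chromosome 11 between 100117327 and 100148665. Krt19, a keratin of simple and glandular epithelium, stood at 309.7 and 307 CPM in RM1 versus 19.5 and 7.25 in RM1536, 15.9 for bone and 10.2 for lung, and fell by 4.53 ± 0.51 (adjusted p = 0.0132). Its neighbour Krt13, a keratin of stratified epithelium, went from 19.7 and 10.3 to 0.845 and 0.227 CPM, and Krt15, a basal keratin, from 1.94 and 2.69 to 0.0805 and 0.129 CPM. Both RM1536 libraries lay far below both RM1 libraries in each. Krt8 and Krt18, which lie on another chromosome, did not pass: Krt8 stood at 1407 and 966 CPM in RM1 versus 2124 and 1349 in RM1536 (0.55 ± 0.31, adjusted p = 0.357) and Krt18 at 373 and 392 CPM in RM1 versus 458 and 275 in RM1536 (-0.06 ± 0.28, 0.927). Of 13 keratin genes tested, 3 fell and none rose, and of 4 claudin genes none was called (17.6% of both families, against 5.64% over all genes; median of both families together -0.06, against 0.02 over all genes). With RM1536 b left out 1 of the 3 was called. Krt19 held under all 9 settings, Krt13 missed the threshold without RM1536 b, and Krt15 without RM1536 a or b.

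Imprinted genes, expressed from 1 parental copy, were called in 7 of 43 tested members (16.3%, against 5.64% over all genes), with 6 lower, 1 higher and a median log2 fold change of -0.18. The count was 3, 8, 3 and 1 without 1 library (RM1 a, b, then RM1536 a, b), while it was 486, 513, 427 and 196 over all genes. Among the 24 expressed from the paternal copy, 4 fell and 1 rose. The 4 that fell lie on chromosome 7, whose genes at a mean of 5 CPM or more had a median of -0.28. Peg3, a zinc finger protein gene of growth and maternal care, had 804 and 1074 reads in RM1 and 2 and 3 in RM1536. Peg12, chosen after its values were seen, codes for a protein of the FRAT family that binds the kinase GSK3 and had 326 and 121 reads in RM1 and none in RM1536. Neither recovered in bone (0 reads of Peg3 and 0 of Peg12) or lung (4 and 0).

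Peg12 forms a run with the 2 other paternally expressed genes beside it, Ndn, which codes for the growth suppressor necdin, and Mkrn3, a ubiquitin ligase that restrains the onset of puberty, from 62346569 to 62464510. Ndn had 55 and 25 reads in RM1 and 0 and 0 in RM1536, and Mkrn3 64 and 27 and 1 and 0. These low counts were named after their values were seen, and both genes missed the threshold under the stricter filter and without RM1 a or either RM1536 library. Snrpn, the next paternally expressed gene of that domain, stood at 0.768 and 1.17 CPM in RM1 versus 0.402 and 0.55 in RM1536 and did not pass (-1.01 ± 0.57, adjusted p = 0.355). Usp29, which shares its start region with Peg3, had 9 and 15 reads against 0 and 0 (-6.50 ± 1.51, adjusted p = 0.0839). Both were chosen after their values were seen.

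Other imprinted genes moved in both directions. Peg13, a noncoding RNA gene of chromosome 15, rose from 7.25 and 6.73 to 20.2 and 21.8 CPM (1.59 ± 0.22, adjusted p = 0.020). Of the genes expressed from the maternal copy, Ano1, a calcium-activated chloride channel, fell from 323 and 217 to 65.5 and 32.6 CPM and Ppp1r9a, a neurabin that binds actin, from 13.9 and 10.5 to 1.73 and 3.14 CPM. The most abundant members that were not called were Igf2r (-0.12 ± 0.19, adjusted p = 0.773), which clears insulin-like growth factor 2, and Cd81 (-0.00 ± 0.21, 0.995), a tetraspanin. Germline genes gave 2 calls in 11 members (18.2%, against 5.64% over all genes), both lower, and 1, 3, 1 and 1 as the 4 libraries were left out in turn: Xlr, described above, and Piwil4, a partner of small RNAs in spermatogenesis, with 75 and 40 reads in RM1 and 3 and 2 in RM1536. Of the 9 called imprinted and germline genes named, 2 (Peg3 and Xlr) held under all 9 settings. DESeq2 did not call 1 of them (Peg12), and 7 missed the threshold without RM1536 b, 5 without RM1536 a and 5 without RM1 a.

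Among 92 lineage transcription factor genes tested, 10 fell and 1 rose (12% called, against 5.64%), with a median of -0.09. With the same 4 libraries left out in turn, 9, 10, 6 and 4 members were called. The largest decreases were those of Pax5, Msx1, Sall1 and Pax3, and Gfi1 was the gene that rose. DESeq2 did not call Pax5 or Sall1 (adjusted p = 0.114 and 0.202 in DESeq2). The next 3 were chosen after their values were seen. Gata3, a factor of T cells and of ductal epithelium, stood at 11.9 and 20.2 CPM in RM1 versus 3.50 and 2.17 in RM1536 (-2.50 ± 0.42, adjusted p = 0.0299). Klf5, a factor of proliferating epithelium, went from 41.3 and 76.2 to 18.2 and 12.4 CPM, and Foxp1, a forkhead repressor, from 60.3 and 53 to 25.8 and 29.4 CPM. Of the Pax genes tested 2 of 4 fell, of Sall 1 of 2, of Irx 1 of 4 and of Gata 1 of 4. Of Dlx and Msx genes 1 of 5 fell, of Sox 1 of 8, of Klf 1 of 14 and of Fox 2 of 22. None of these families had a gene that rose, but only 1 of all 92 genes did. Prrx1 (0.34 ± 0.19, adjusted p = 0.349), a mesenchymal homeobox gene, and Klf6 (-0.50 ± 0.47, 0.585), the most abundant members that were not called, did not pass.

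Of 22 Hox genes tested, which record position along the body axis, 1 rose and 1 fell (9.09%, against 5.64% over all genes), and the median log2 fold change was -0.36. In the same order of left-out libraries, 1, 0, 0 and 0 Hox genes were called. Hoxd8 went from 22.3 and 21.3 to 54.6 and 48.1 CPM (1.23 ± 0.20, adjusted p = 0.0291). Hoxb4, the only tested gene of its cluster, was chosen after its values were seen and had 30 and 55 reads in RM1 and 0 and 1 in RM1536. All 7 tested genes of the Hoxc cluster had a log2 fold change below 0 (median -1.07) but none was called, with Hoxc10 at 52.8 and 34.7 CPM in RM1 versus 16.8 and 22.7 in RM1536 (adjusted p = 0.087). The 11 genes of the Hoxa cluster had a median of -0.27, and Hoxa10 stood at 55.9 and 37.3 CPM in RM1 versus 34.4 and 50.4 in RM1536. Gata3, Klf5, Foxp1, Hoxd8 and Hoxb4 each missed the threshold without RM1536 a and without RM1536 b, whereas Msx1 held under all 9 settings. Of the 10 called factors named in both lists, 3 (Msx1, Pax3 and Gfi1) held under all 9.

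Growth factor signalling genes were called in both directions. Of 65 ligands, receptors and binding proteins tested, 7 fell and 2 rose (13.8% called, against 5.64% over all genes, where 3.54% fell and 2.10% rose). Without 1 library (RM1 a, b, then RM1536 a, b), 6, 7, 7 and 3 were called. Tgfa, the gene for the EGF receptor ligand TGF-alpha, stood at 29.5 and 28.3 CPM in RM1 versus 2.45 and 1.23 in RM1536, 0.483 for bone and 0.671 for lung (log2 fold change -3.98 ± 0.41, adjusted p = 0.011). Its receptor gene Egfr, named after its values were seen, had 139 and 122 reads in RM1, 0 and 3 in RM1536, 0 for bone and 9 for lung, an RM1 to RM1536 ratio of 83.4 (95% counting interval 28.2 to 407). Both genes were lower in each RM1536 library than in each RM1 library. The ligand genes Ereg (-1.52 ± 0.25, adjusted p = 0.0288) and Hbegf (-1.16 ± 0.21, 0.0364) fell less.

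Among other receptors, Flt1, a VEGF receptor, went from 95 and 70.6 to 20.1 and 12.3 CPM and stood at 105 in bone. Pdgfc, a platelet-derived growth factor, rose from 4.98 and 7.33 to 21.2 and 19.9 CPM (1.74 ± 0.28, adjusted p = 0.0276). Fgf2, a fibroblast growth factor named after its values were seen, rose from 15 and 16 reads to 153 and 148 (3.35 ± 0.41, 0.0146). The most abundant members not called were Axl (-0.40 ± 0.22, 0.347), a receptor for GAS6, and Igfbp4 (0.51 ± 0.27, 0.321), a binding protein of insulin-like growth factors. Of the 7 called genes named, 3 (Egfr, Tgfa and Fgf2) held under all 9 settings, and Flt1 missed the threshold without RM1536 b, Ereg without RM1 b or either RM1536 library, Pdgfc without RM1 a or either RM1536 library, and Hbegf without any 1 of the 4.

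Feedback inhibitors of the MAP kinases moved in both directions. Of 25 tested, 4 fell and 2 rose, and of 19 immediate early transcription factors 1 fell; the median over both was -0.43. Over both, 15.9% were called, against 5.64% over all genes, and the count of 7 became 6, 4, 5 and 1 in the fits without 1 library (RM1 a, b, then RM1536 a, b). Dusp2, a nuclear MAP kinase phosphatase, stood at 47.5 and 58.8 CPM in RM1 versus 6.76 and 6.41 in RM1536 (-3.01 ± 0.24, adjusted p = 0.00704). Dusp5, an ERK phosphatase, went from 137 and 194 to 43.6 and 19.8 CPM, Spred3, an inhibitor of RAS signalling, from 125 and 142 to 37.9 and 31.7 CPM, and Dusp14 from 26.7 and 32.1 to 7.97 and 11.1 CPM. Junb, a subunit of AP-1 chosen after its values were seen, fell by 1.61 ± 0.27 (adjusted p = 0.0318).

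Against these, Dusp9, a cytoplasmic phosphatase of ERK on chromosome X, rose from 62.7 and 63.7 to 168 and 215 CPM (1.60 ± 0.22, adjusted p = 0.0188), and Spry1, a Sprouty inhibitor of receptor tyrosine kinases, from 5.11 and 2.12 to 15.5 and 23.5 CPM (2.43 ± 0.47, 0.0437). Dusp6, an ERK-induced phosphatase and the most abundant member not called, stood at 463 and 390.3 CPM in RM1 versus 299 and 342 in RM1536 (-0.41 ± 0.21, 0.306). Zfp36, which codes for tristetraprolin, a protein that destabilises cytokine mRNAs, belongs to the zinc finger list below. It fell from 90.4 and 127 to 15.2 and 10.9 CPM (-3.06 ± 0.30, 0.00966). Of the 8 called genes named, 2 (Dusp2 and Zfp36) held under all 9 settings. Without RM1536 b 6 missed the threshold, without RM1536 a 2, without RM1 a 2 and without RM1 b 3.

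Of 17 ligand genes of the TGF-beta and BMP family tested, 5 rose and 1 fell (35.3% called, against 5.64%), and their median log2 fold change was 1.09. Inhba, which codes for the activin A subunit, stood at 6.58 and 5.63 CPM in RM1 versus 30.5 and 30.1 in RM1536 (2.31 ± 0.23, adjusted p = 0.0107), and Gdf7, a BMP of the dorsal spinal cord, at 1.24 and 1.13 CPM in RM1 versus 9.86 and 9.97 in RM1536 (3.06 ± 0.31, 0.011). The RM1536 values of each agreed to within 0.5 CPM. Inhbb, the activin B subunit, went from 3.57 and 6.59 to 31.4 and 30.5 CPM but stood at 3.69 in bone. Tgfb1, by contrast, fell from 125 and 160.4 to 62.4 and 46.1 CPM (-1.40 ± 0.25, 0.0364).

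None of the 12 receptor genes tested was called (median 0.06). Of 24 genes for extracellular regulators, SMADs and targets, 2 rose and 2 fell. Over all 53 genes of the pathway 10 were called (18.9%, against 5.64% over all genes), and 6, 7, 5 and 3 without 1 library (RM1 a, b, then RM1536 a, b). Ltbp3, which anchors latent TGF-beta in the matrix, fell from 490.1 and 376 to 166 and 169 CPM. Tgfbi, a matrix protein induced by TGF-beta, rose from 14.1 and 11.6 to 135 and 50.5 CPM (2.85 ± 0.49, adjusted p = 0.0318). The most abundant genes of the list that did not pass were Bmp1, a procollagen protease (0.02 ± 0.20, 0.962), and Ltbp1, another latency protein (-0.53 ± 0.19, 0.177). Of the 6 called genes named, 2 (Inhba and Gdf7) held under all 9 settings. Inhbb missed the threshold without RM1536 a or b, Tgfb1 without RM1 b or either RM1536 library, Ltbp3 without RM1 a or either RM1536 library, and Tgfbi without RM1 a or b.

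Of 37 Wnt pathway genes tested, 4 rose and none fell (10.8% called, against 5.64% over all genes; median 0.30). They were a ligand, a receptor, a secreted modulator and a transcription factor. Wnt7b, a ligand of branching epithelia, stood at 25.5 and 34.2 CPM in RM1 versus 194 and 221 in RM1536, 244 for bone and 223 for lung (2.80 ± 0.25, adjusted p = 0.00871). Ror2, a receptor for Wnt5a, went from 1.44 and 0.637 to 17.1 and 25.3 CPM (4.34 ± 0.45, 0.0116), on a chromosome (13) whose genes beyond 30 Mb had a median of -0.43. Both genes were several-fold higher in each RM1536 library than in either RM1 library. Dkk2 showed the largest difference of the list (7.53 ± 0.48). Tcf7, a T cell factor that binds beta-catenin, rose by 1.40 ± 0.28 (adjusted p = 0.0477) and was the only one of the 4 not to hold under all 9 settings: it missed the threshold under the stricter filter, with only the 4 culture libraries, and without any 1 of those. Ctnnb1, the beta-catenin gene (0.50 ± 0.24, 0.284), and Lrp6, a co-receptor (-0.35 ± 0.27, 0.50), did not pass.

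Axon guidance genes, which also act in migration and vessel growth, rose in 9 of 55 tested members and fell in 1 (18.2% called, against 5.64%), with a median of 0.43. Leaving out 1 library (RM1 a, b, then RM1536 a, b) gave 7, 7, 5 and 4 called members in place of 10. Slit3, a ligand of Robo receptors, stood at 0.501 and 0.142 CPM in RM1 versus 8.81 and 29.4 in RM1536, 62.1 for bone and 32.3 for lung (5.86 ± 0.82, adjusted p = 0.020). Sema5a, a transmembrane semaphorin, stood at 32.7 and 18.9 CPM in RM1 versus 203 and 210.1 in RM1536, 439.8 and 337 (3.00 ± 0.32, 0.0117). In both genes all 4 libraries of RM1536 cells lay above both RM1 libraries, and the recovered cells had the highest values.

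The secreted semaphorin gene Sema3d went from 2.14 and 0.566 to 24.9 and 16.7 CPM, and Sema6a, a transmembrane semaphorin, from 1.20 and 2.48 to 13.3 and 7.25 CPM. Nrp2, a neuropilin that binds semaphorins and VEGF-C, was chosen after its values were seen and went from 113 and 78.3 to 273 and 376 CPM. Ntn4, a netrin of basement membranes, fell from 25.1 and 16.9 to 5.39 and 6.31 CPM (-1.84 ± 0.30, 0.0284). The most abundant members not called were Plxnb2 (-0.74 ± 0.22, 0.117) and Epha2 (-0.54 ± 0.28, 0.313). Of the 6 called genes named, 2 (Slit3 and Sema5a) held under all 9 settings. Sema3d missed the threshold without RM1536 a and without RM1536 b, Ntn4 without these and without RM1 a, Sema6a in all 3 of these cases and with only the 4 cultures fitted, and Nrp2 without RM1 b and without RM1536 b.

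**Figure D4:**
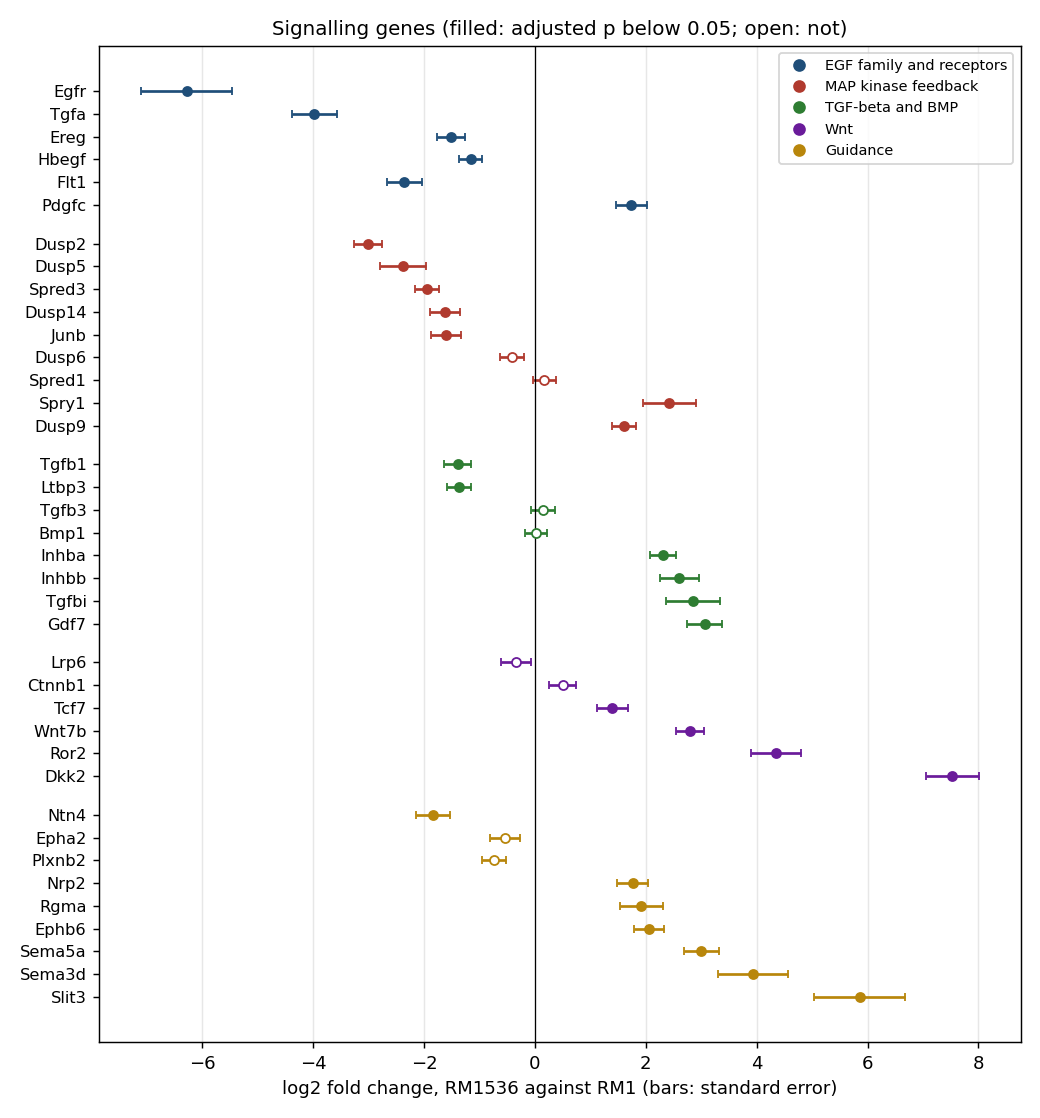
Log2 fold change of RM1536 against RM1 (point) with its standard error (bar) for chosen genes of 5 signalling groups. Points are filled where the adjusted p is below 0.05. EGF receptor ligand genes and Egfr lie left of 0, and activin genes and most of the Wnt and guidance genes drawn lie right of it. Called genes with large changes were favoured in the choice, so the sides describe the genes drawn only. Over the whole lists, 21 of 37 Wnt genes and 38 of 55 guidance genes lay above 0.

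Adhesion and matrix families had the highest shares of called members among the 27 lists (25%, 23.8% and 20.7%, against 5.64% over all genes), in both directions. Of 28 laminin and integrin genes 4 rose and 3 fell, of 42 cadherin and protocadherin genes 5 rose and 5 fell, and of 29 collagen genes 4 rose and 2 fell. Without 1 library (RM1 a, b, then RM1536 a, b), these counts of 7, 10 and 6 became 4, 4, 2 and 2 for laminins and integrins, 3, 7, 4 and 2 for cadherins and 5, 5, 6 and 2 for collagens. Lama5, a laminin chain of epithelial basement membranes, stood at 1064 and 415 CPM in RM1 versus 31.9 and 44 in RM1536 (-4.28 ± 0.51, adjusted p = 0.0146); the RM1 libraries differed 2.56-fold, yet both lay far above RM1536. Itga3, the integrin chain that binds laminins with this chain, fell from 470.3 and 331 to 87.1 and 107 CPM (-2.04 ± 0.26, 0.0168). Itga8, a partner of integrin beta-1 that binds nephronectin, rose from 1.40 and 1.42 to 11.4 and 10.2 CPM (2.93 ± 0.31, 0.012), but stood at 1.36 in bone. Itgb1, the most abundant chain not called, changed by -0.28 ± 0.20 (0.459).

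Pcdh17, a protocadherin of neural circuits, stood at 211 and 198 CPM in RM1 versus 23.1 and 45.9 in RM1536 (-2.57 ± 0.36, adjusted p = 0.020) and was lower still in bone (5.49) and lung (11.6). Within the clustered protocadherins, which share constant exons so that reads can be split between isoforms, Pcdhga6 rose from 1.57 and 2.51 to 17.2 and 16 CPM, while Pcdhga11 fell from 14.3 and 10.3 to 2.58 and 3.01 CPM and Pcdhgc5 from 12.2 and 10.8 to 3.14 and 3.82 CPM. Members of 1 cluster thus moved in opposite directions, on a chromosome (18) whose median was 0.44. The most abundant members not called were Cdh2, the N-cadherin gene (0.81 ± 0.21, 0.0866), and Pcdh7 (0.62 ± 0.23, 0.179).

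The collagen VI chains rose together: Col6a1 from 28.1 and 50.9 to 262 and 483 CPM (3.24 ± 0.43, adjusted p = 0.0184) and Col6a2 from 7.28 and 13.2 to 84.3 and 182 CPM (3.70 ± 0.49, 0.0182). They are neighbouring genes on chromosome 10. Col7a1, the chain of anchoring fibrils, rose by 1.87 ± 0.27, and Col5a3 fell by 1.81 ± 0.31 (adjusted p = 0.0213 and 0.0333). Of the 11 called genes named in these families, 4 (Itga8, Pcdh17, Pcdhga6 and Col6a2) held under all 9 settings. Without RM1536 b 7 missed the threshold, without RM1536 a 6, without RM1 a 2 and without RM1 b 2.

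Of 35 neuronal genes 4 rose and 2 fell (17.1% called, against 5.64% over all genes), and of 71 ion channel genes 4 rose and 3 fell (9.86%). Leaving out the 4 libraries in the order used above gave 7, 7, 5 and 3 neuronal genes and 4, 5, 5 and 3 channel genes. Gap43, a protein of growing axons, rose from 0.668 and 1.27 to 36.6 and 14.7 CPM (4.72 ± 0.60, adjusted p = 0.0167), yet stood at 1.93 in bone. Nptx1, a secreted pentraxin of synapses, rose from 1.67 and 0.921 to 203 and 57.3 CPM (6.64 ± 0.76, 0.0137), and stood at 737 for bone and 219.7 for lung. Both neuronal genes that fell are in the synapse and secretion part of the list, as is Nptx1: Syt7, a calcium sensor of secretion, went from 24.4 and 46.9 to 3.70 and 1.97 CPM and stood at 45.1 for bone and 5.37 for lung, and Cplx2, a regulator of vesicle fusion, from 81.6 and 74.3 to 23.9 and 25 CPM. Bone thus lay with RM1 for Gap43 and Syt7, and with RM1536 for Cplx2. Cacna1c, a calcium channel subunit, rose from 0.568 and 0.0708 to 6.76 and 17.6 CPM (5.22 ± 0.89, 0.0323), and the potassium channel gene Kcnh1 fell from 19.6 and 19.3 to 3.26 and 3.82 CPM (-2.45 ± 0.28, 0.0134). As a group, 5 neuron and glia markers (Snap25, Rbfox3, Gfap, Syt1 and Mbp) summed to 0.534 and 0.673 CPM in RM1 and to 3.26 and 2.98 in RM1536. Mbp alone made up 2.66 and 2.69 CPM of the RM1536 sums, and the neuronal markers Snap25 and Rbfox3 had 0 reads in RM1536. The part of these marker genes in the values above was not tested. Gap43 and Nptx1 held under all 9 settings, and Syt7, Cplx2, Cacna1c and Kcnh1 missed the threshold without RM1536 b.

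G protein-coupled receptor genes were called in 12 of 74 members, 8 higher and 4 lower, with a median of 0.27 (16.2% called, against 5.64% over all genes). The count fell to 7, 7, 8 and 1 without 1 library (RM1 a, b, then RM1536 a, b). Gpr149, an orphan receptor, went from 80.3 and 54 to 181 and 188 CPM, Gpr153 from 2.37 and 4.18 to 20.04 and 26.4 CPM and Htr1b, a serotonin receptor, from 6.21 and 5.06 to 19.4 and 28.5 CPM. Adgre5, which codes for CD97, an adhesion receptor of leukocytes and epithelium, fell from 21.4 and 31.9 to 3.70 and 4.24 CPM (-2.75 ± 0.32, adjusted p = 0.0137). The libraries of the lines did not overlap in these 4 genes, nor in 54.2% of all genes tested. Among 39 genes of retinoid, prostanoid, hyaluronan and lysyl oxidase metabolism 6 rose and 1 fell (17.9%, against 5.64% over all genes). These 4 small groups were joined in 1 list with earlier results of these data known, so the share is a description only. Crabp2, which delivers retinoic acid to its receptor, rose from 0.301 and 0.425 to 24.7 and 22.6 CPM (6.01 ± 0.31, 0.00443) and stood at 42.2 for bone and 38.3 for lung. Loxl4, a lysyl oxidase of the matrix, fell from 52.9 and 45.1 to 8.05 and 7.99 CPM (-2.61 ± 0.23, 0.00871). Crabp2 and Loxl4 held under all 9 settings. Adgre5 and Gpr153 missed the threshold without RM1536 b, Htr1b without RM1 b or RM1536 b, and Gpr149 without RM1 b or either RM1536 library.

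Solute carriers and zinc finger proteins are large families. Of 213 solute carrier genes, 7 rose and 6 fell (6.10%, against 5.64% over all genes), with a median of 0.03, and of 314 zinc finger protein genes 4 rose and 6 fell (3.18%), with a median of -0.20 against 0.02 over all genes; 107 of the 314 lay above 0. These 13 and 10 calls became 8, 6, 3 and 1 and 5, 7, 3 and 1 without 1 library (RM1 a, b, then RM1536 a, b). Slc40a1, the iron exporter ferroportin, stood at 0.367 and 1.31 CPM in RM1 versus 31.4 and 9.19 in RM1536, 16.4 for bone and 76.2 for lung (4.60 ± 0.81, adjusted p = 0.0348). Slc6a15, a carrier of branched-chain amino acids, went from 1.07 and 2.69 to 26 and 27.7 CPM and Slc16a3, which exports lactate, from 59.3 and 40.1 to 141 and 121 CPM. Slc16a3 stood at 590.2 for bone and 209 for lung, above all 4 cultures. Slco2a1, a prostaglandin carrier, fell from 12.6 and 9.59 to 4.59 and 3.24 CPM but stood at 52.4 and 28.3, above RM1.

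Among the zinc finger genes, Zfp57, which protects the methylation of imprinted regions in the embryo, fell from 34.3 and 51.5 to 11 and 10.3 CPM, and was lower still in bone (2.02) and lung (5.92). Zfp467 went from 15 and 15.9 to 1.85 and 3.11 CPM, with 0 for bone and 0.592 for lung, and Zfp703, a transcriptional repressor, from 152 and 167 to 51.3 and 42 CPM. Zfp503 rose from 11.9 and 15.5 to 46.2 and 56.5 CPM. The libraries of the lines did not overlap in these 4 genes, nor in 177 of the 314 zinc finger genes and 54.2% of all genes tested. None of the 8 called genes named in both families held under all 9 settings. Without RM1536 a 5 missed the threshold, without RM1536 b 7, without RM1 a 3 and without RM1 b 2. Slco2a1 missed it also with only the 4 cultures fitted.

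Histone genes of the replication-dependent clusters had a median log2 fold change of 1.21 over 31 tested members, with 3 higher and none lower (9.68% called, against 5.64% over all genes). In turn without 1 library (RM1 a, b, then RM1536 a, b), 2, 1, 2 and 1 were called. Hist1h2bc, an H2B gene, went from 8.02 and 10.1 to 52.2 and 75.9 CPM, with 110.0 for bone and 71.7 for lung (2.83 ± 0.28, adjusted p = 0.0101), and held under all 9 settings. Hist1h1c, a linker histone gene, rose by 1.39 ± 0.28 (0.0482) and missed the threshold under the stricter filter, without RM1536 b and without either RM1 library. The transcripts of these genes mostly lack a poly(A) tail, so their level depends on how RNA was selected, and that step is not given in the sources used here. None of the 10 histone variant genes was called (median 0.35).

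**Figure D5:**
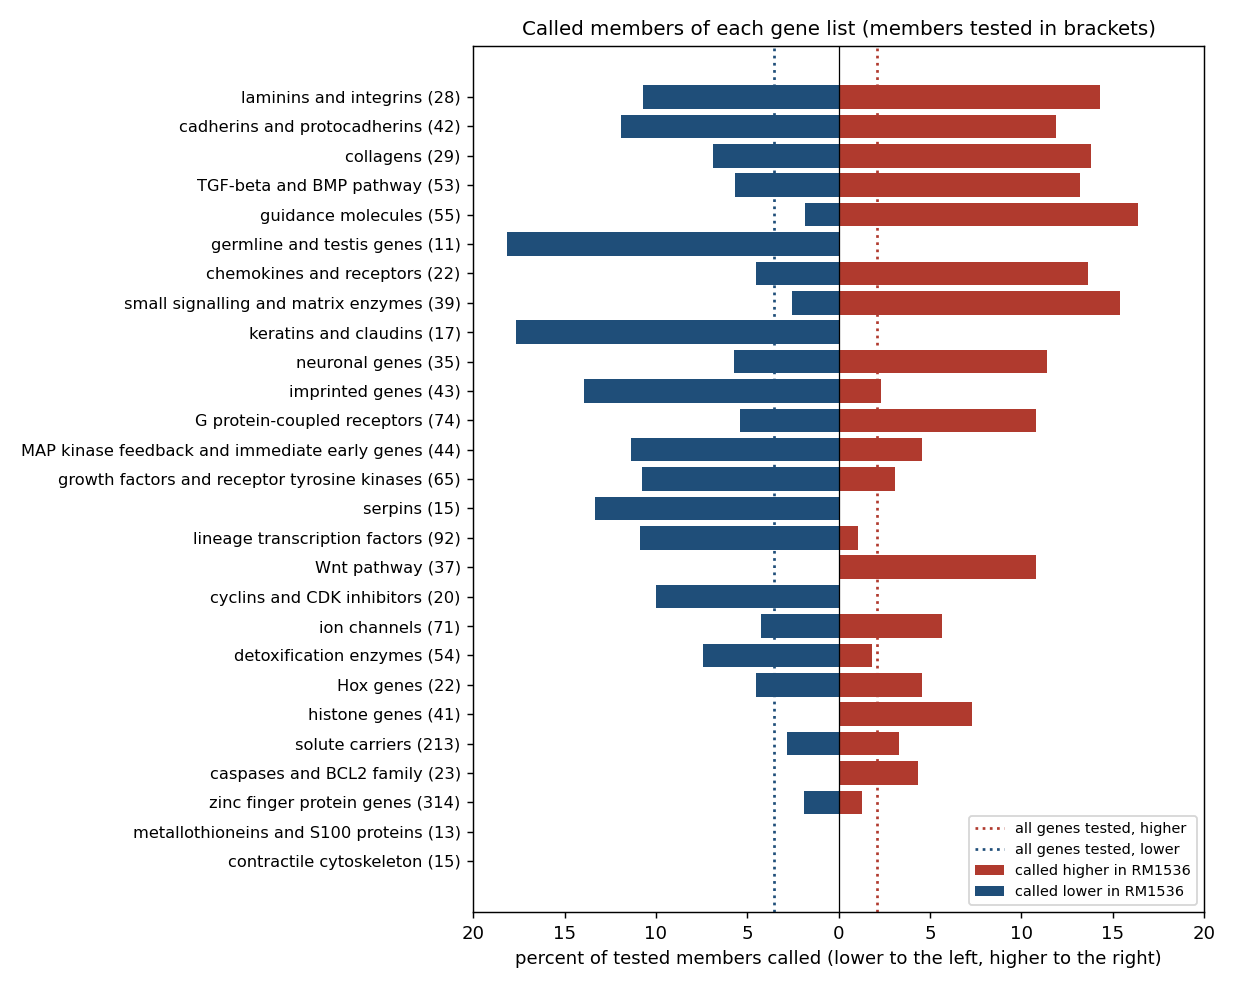
Percent of the tested members of each of 27 gene lists that were called lower (left) or higher (right) in RM1536, with the number tested in brackets and dotted lines at 3.54% lower and 2.10% higher, the shares over all genes tested. Bars to the left are longest for germline, keratin and imprinted genes, and bars to the right for guidance, small enzyme and laminin and integrin genes.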

How the data were processed

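RNA from 4 cultures was sequenced after library preparation with the NEBNext Ultra kit, per the labels' protocols. The deposited values were raw counts per gene. Per the submitters' processing notes, GRCm38, TopHat2, HTSeq and edgeR were used; how strand was handled is not given in the sources used here, so reads from overlapping genes on opposite strands cannot be told apart. A nameless entry with 0.00626 to 0.00830% of the counts was left out. Counts of all 6 libraries were fitted in 4 groups with edgeR 4.0.16 (R 4.3.3): TMM scaling, filterByExpr by group and a quasi-likelihood test. The estimated biological coefficient of variation was 0.269, with 2 residual and 4.03 prior degrees of freedom. CPM uses TMM-scaled totals. The script was tested on simulated data. Gene positions are from GENCODE M21 and promoter sequences from RefSeq, both GRCm38.

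Members and gene lists were chosen with earlier results of these data known. From each of the 27 lists the text names up to 4 called genes per direction with a mean CPM of at least 5, largest change first, and up to 2 abundant genes not called. It also names the top 12 on or off genes per direction, genes of up to 6 runs, and the 10 most abundant called genes per direction; some of these are not reported here, and a gene outside the rule is said to be chosen after its values were seen. Counts of called list members without 1 library, chromosome stretches and the crossed pairing were added after seeing the data. The other settings were RLE scaling, DESeq2 1.42.0, no low-count filter, at least 1 CPM in 2 libraries, the 4 cultures alone, and each culture left out.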

Additional observations from a re-analysis of the deposited data

How the results depend on the processing

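The 780 called genes (291 higher, 489 lower) became 1471 (552 and 919) with DESeq2 and 2394 (980 and 1414) with no low-count filter, and leaving out 1 library gave 196 to 513 (83 to 191 higher, 113 to 329 lower). RLE scaling, a stricter filter and the 4 cultures alone gave counts within 1.5 times the main one (814, 704 and 836). At an unadjusted p below 0.05, 3176 of 13832 genes passed. A replicate block on the letters a and b gave 295 calls (99 higher, 196 lower) and 4 runs; the labels give the letters no shared origin and same-lettered libraries did not deviate together (correlation of deviations -0.37), so the block is not read as a pairing. The crossed pairing, chosen after seeing the data, gave 3165 calls (1379 and 1786) and 125 runs. The 10 runs became 26 with DESeq2, 44 with no filter, 1 with at least 4 adjacent genes, and 1 to 10 with 1 library left out. Genes off in RM1536 were 64, or 13 at 5 CPM, 28 at 0 reads and 82 to 96 with 1 library left out, and genes on were 15, or 1, 2 and 21 to 33. With 1 library left out, the stretch medians ranged from -1.23 to -1.13, -0.63 to -0.50 and -0.043 to 0.043 along chromosome 4, from -0.092 to 0.017 and -0.48 to -0.41 along chromosome 13, and from 0.36 to 0.51 on chromosome 18. Some log2 fold changes that had not passed changed sign with 1 library left out, with these ranges: Krt18 (-0.51 to 0.24), Pelp1 (-0.052 to 0.46), Cd81 (-0.15 to 0.11), Klf6 (-1.03 to 0.25), Hoxa10 (-0.46 to 0.15), Bmp1 (-0.12 to 0.11), Flna (-0.28 to 0.017) and Ccnd1 (-0.20 to 0.90). The causes of these shifts were not tested. Depth limits the genes with few reads: a gene with 0 reads in a culture may stand at up to 0.121 CPM.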

Other observations

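Of 22 chemokine ligand and receptor genes, 3 rose and 1 fell (18.2%, against 5.64% over all genes), and 2, 1, 2 and 1 were called without 1 library (RM1 a, b, then RM1536 a, b). Ccl7, a monocyte attractant, went from 4.24 and 2.94 to 17.9 and 13 CPM, with 10.5 for bone and 6.00 for lung (2.11 ± 0.34, adjusted p = 0.0276 in edgeR's quasi-likelihood test). It missed the threshold without RM1 b and without either RM1536 library. Of 54 glutathione transferase, aldehyde dehydrogenase, aldo-keto reductase and cytochrome P450 genes, 4 fell and 1 rose (9.26%), and 2, 3, 1 and 1 were called in the same order of left-out libraries. Aldh3b1, an aldehyde dehydrogenase, went from 11.9 and 8.32 to 2.86 and 2.33 CPM (-1.96 ± 0.35, 0.0351), and missed the threshold without RM1 a and without either RM1536 library. Of 15 serpin genes 2 fell (13.3%), and 1, 0, 0 and 0 were called with those libraries left out.

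The lists for contractile proteins (15 genes) and for metallothioneins and S100 proteins (13 genes) held no called gene in edgeR's test. At an unadjusted p below 0.05, 4 and 3 of them passed, against 3176 of all 13832 genes tested. DESeq2 called 4 and 1, against 1471 over all genes. Flna, the filamin A gene, stood at 1675 and 1378 CPM in RM1 versus 1276 and 1576 in RM1536, and S100a6, a calcium-binding protein gene, at 796 and 610.4 CPM in RM1 versus 1205 and 1061 in RM1536. The caspase and BCL2 family list had 1 call in 23 (4.35%) and cyclins with CDK inhibitors 2 in 20 (10%), against 5.64% over all genes. Cyclins and cyclin-dependent kinases gave none of 12, with Ccnd1, the cyclin D1 gene, at 508 and 233 CPM in RM1 versus 460.3 and 426 in RM1536 (0.26 ± 0.37, 0.734).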
